A study of Mus musculus with 14 samples.

Results

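The Sox, Pax and T-box genes encode transcription factors that direct the choice of cell fate in the embryo. The gene set described here held 42 of the 21938 mouse protein-coding genes of the annotation used, namely 18 Sox, 9 Pax and 15 T-box genes. Members were taken by name from these 3 families, and the set need not hold every gene of them. The members were then sorted by hand into 11 mesenchymal genes, 5 broadly expressed genes and 26 genes of other lineages. This sorting used textbook expression and was made with earlier results of these data known.

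The 3 families are named for their DNA-binding domains, the HMG box of the SOX proteins, the paired box of the PAX proteins and the T-box. Most members are switched on in few lineages and are held silent elsewhere, often at promoters rich in CpG dinucleotides. In fibroblasts and related mesenchyme, members such as Sox9, Tbx15 and Pax9 direct cartilage, limb, skin and jaw development, whereas Sox2, Pax5 or Tbx21 serve neural, B cell and T helper cell programmes.

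H3K4me3, the trimethylated lysine of histone H3 that marks active promoters, was mapped by chromatin immunoprecipitation and sequencing (ChIP-seq) in iMEF cells, immortalised mouse embryo fibroblasts. Their endogenous Ash2l alleles lacked an exon and made no protein, and a lentiviral FKBP-ASH2L fusion of human sequence was the only source of this subunit of the H3K4 methyltransferase complexes. The compound dTAG directs the fusion protein to degradation. H3K4me3 was measured in 6 groups of 2 replicates, untreated cells and cells given dTAG for 30 min, 2 h, 4 h, 8 h or 16 h, beside 1 input library each for the untreated and the 16 h group. The ChIP-seq was done in NG3 cells, 1 of several clones the study made. All groups, controls included, carried the Ash2l deletion and the fusion.

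The values below come from 2 lists of genome positions. One gave 25431 H3K4me3 peaks, pooled over the libraries. The other gave 32965 putative enhancers of control cells. Neither list separated samples, so every value is a property of the pooled list, without replicate error, and time points could not be compared. The lists carry no read counts, and the depth each library reached was not used here. Genes are not replicates, and no test was run between groups of genes. Positions are in the build GRCm38.p6 (mm10) and count from 1.

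The lists were first checked against markers of the labelled cells. A peak within 1 kb of a transcription start site (TSS) was found at 59.1% of all protein-coding genes. Of 12 fibroblast markers, 10 had one, with a median width of 2559 bp for the widest peak of each. These widths ran from 382 bp at Col3a1 to 3018 bp at Prrx1, and the median over all coding genes with a peak was 1255 bp. Dcn and Lum, which encode proteoglycans of the fibroblast matrix, had no peak. Peaks were found at 2 of 6 epithelial, 0 of 5 haematopoietic and 2 of 4 endothelial markers. They were also found at 2 of 4 neuronal, 1 of 4 muscle and 0 of 3 pluripotency markers. The endothelial and neuronal counts were thus near the share of all genes. Median widths of the widest peaks were 663 bp for epithelial, 722 bp for endothelial and 1390 bp for neuronal markers, and the muscle peak had 762 bp.

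Promoter sequences are shown for the member with the widest peak of each class and for the member without a peak that was richest in CpGs, since CpG content is the property of the sequence that the peaks are set against. That of Tbx5, the mesenchymal member without a CpG island, was added after its values were seen. That of Tbx15 is at a start 13379 bp into the gene, 951 bp before its widest peak. A peak of 1233 bp covers that start. Each runs 5′ to 3′ from 250 bases before the TSS, is 300 bases long, comes from the RefSeq copy of GRCm38.p6 and has its CpG dinucleotides in capitals. The Tbx15 sequence lies at chr3:99253510-99253809 on the plus strand, that of Sox12 at chr2:152398014-152398313 on the minus strand, that of Sox8 at chr17:25570637-25570936 on the minus strand, that of Tbx1 at chr16:18586920-18587219 on the minus strand and that of Tbx5 at chr5:119832418-119832717 on the plus strand.
Tbx15: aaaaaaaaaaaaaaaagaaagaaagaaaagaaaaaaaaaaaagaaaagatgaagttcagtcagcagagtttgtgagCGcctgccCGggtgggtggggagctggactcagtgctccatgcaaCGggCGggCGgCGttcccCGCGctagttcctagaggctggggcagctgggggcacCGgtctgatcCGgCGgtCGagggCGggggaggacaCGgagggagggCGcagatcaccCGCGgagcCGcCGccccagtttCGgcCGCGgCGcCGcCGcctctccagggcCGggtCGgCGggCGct
Sox12: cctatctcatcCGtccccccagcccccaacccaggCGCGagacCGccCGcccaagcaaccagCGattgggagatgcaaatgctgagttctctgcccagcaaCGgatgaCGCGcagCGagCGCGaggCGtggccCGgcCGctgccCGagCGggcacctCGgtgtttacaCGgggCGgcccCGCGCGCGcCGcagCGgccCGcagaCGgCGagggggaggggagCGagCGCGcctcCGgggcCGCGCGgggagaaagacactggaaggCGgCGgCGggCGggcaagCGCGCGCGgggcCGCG
Sox8: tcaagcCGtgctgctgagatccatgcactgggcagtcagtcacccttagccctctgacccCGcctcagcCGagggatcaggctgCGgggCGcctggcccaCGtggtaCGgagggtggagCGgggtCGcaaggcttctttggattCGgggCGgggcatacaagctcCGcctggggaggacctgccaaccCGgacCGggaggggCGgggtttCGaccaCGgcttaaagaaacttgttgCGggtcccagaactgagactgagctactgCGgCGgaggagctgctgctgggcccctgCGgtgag
Tbx1: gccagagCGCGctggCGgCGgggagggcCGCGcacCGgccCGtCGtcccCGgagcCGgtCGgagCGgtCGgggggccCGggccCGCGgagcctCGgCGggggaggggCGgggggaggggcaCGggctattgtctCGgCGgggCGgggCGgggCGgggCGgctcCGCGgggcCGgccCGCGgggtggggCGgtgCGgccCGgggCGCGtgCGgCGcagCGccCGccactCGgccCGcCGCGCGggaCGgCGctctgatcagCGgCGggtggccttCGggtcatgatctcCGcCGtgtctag
Tbx5: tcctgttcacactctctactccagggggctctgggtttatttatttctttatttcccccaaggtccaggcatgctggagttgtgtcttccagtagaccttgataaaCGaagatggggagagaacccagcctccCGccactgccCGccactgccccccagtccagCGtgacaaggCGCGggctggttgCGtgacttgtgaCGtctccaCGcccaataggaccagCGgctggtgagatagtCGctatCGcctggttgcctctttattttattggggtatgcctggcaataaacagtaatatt

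The sequences held 29 CpGs for Tbx15, 46 for Sox12, 21 for Sox8, 53 for Tbx1 and 12 for Tbx5. Their GC contents were 63.3%, 75.7%, 66.3%, 84% and 53.7% in the same order. The Tbx1 promoter, at 1 of 4 annotated starts of the gene, thus held more CpGs than any of the 3 marked promoters shown, yet Tbx1 had no peak within 1 kb of a TSS.

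To ask which members carried H3K4me3 at their promoters, peaks that reached to 1 kb or less from any TSS of a member were counted. Such a peak was present at 24 of 42 members (57.1%), close to the 59.1% of all protein-coding genes. The classes differed in their counts. A peak was found at 9 of 11 mesenchymal members (81.8%, Wilson 95% confidence interval 52.3 to 94.9), at 5 of 5 broadly expressed members (56.6 to 100) and at 10 of 26 members of other lineages (38.5%, 22.4 to 57.5). These intervals cover counting error over genes only, and not the choice of the classes. With the broadly expressed members counted among other lineages, the share there was 48.4%. By family, a peak was found at 12 of 18 Sox, 4 of 9 Pax and 8 of 15 T-box genes in the set.

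The marked members had 41 such peaks, 14 members with 1 and 10 with several. Of the peaks, 25 contained a TSS of the member and 16 lay beside one. The member farthest from its peak among those counted was Sox18, at 162 bp. Just outside the limit of 1 kb was Tbx1, whose nearest peak lay 1051 bp from a TSS and was 461 bp wide.

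**Figure D1:**
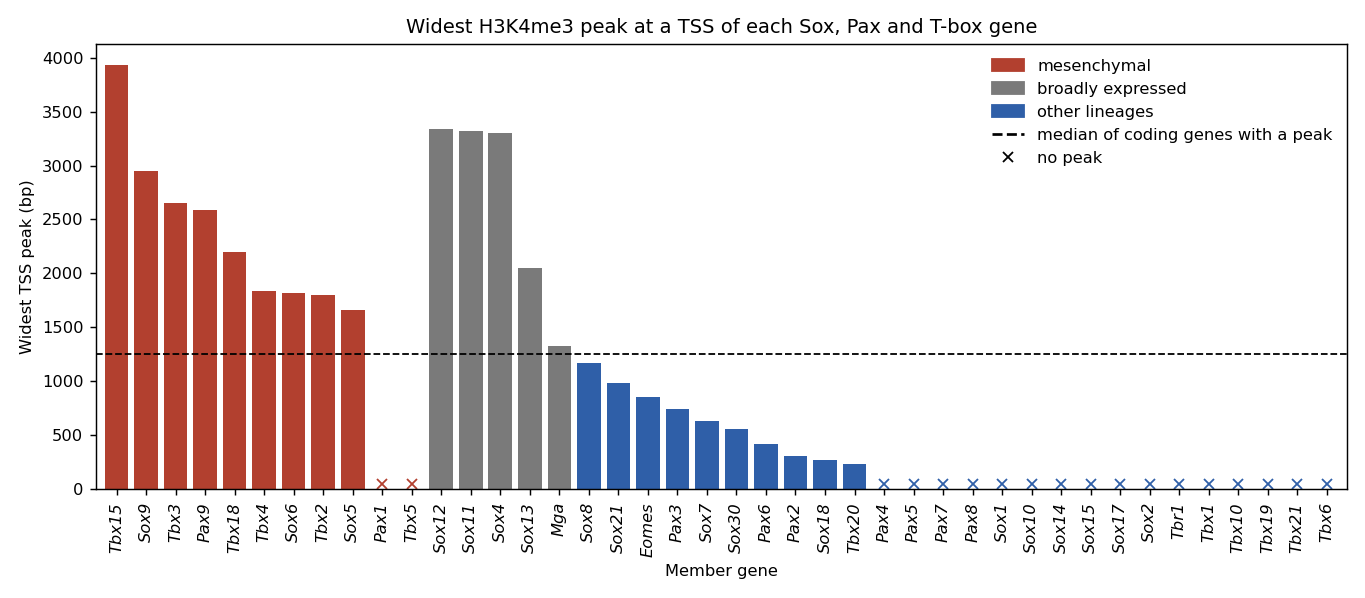
Width in bp of the widest H3K4me3 peak within 1 kb of a TSS, 1 bar per member, with crosses for members without a peak and a dashed line at 1255 bp, the median of all protein-coding genes with a peak. The 9 marked mesenchymal members and the 5 broadly expressed members lie above the line, and the 10 marked members of other lineages lie below it.

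Next, the width of the peaks was compared. The widest TSS peak of a mesenchymal member had a median of 2196 bp (quartiles 1815 and 2651, range 1658 to 3930). For broadly expressed members the median was 3299 bp, between 1324 and 3338 bp. For members of other lineages it was 594.5 bp (quartiles 337.8 and 828.2, range 233 to 1166). The median over all 12966 protein-coding genes with a peak was 1255 bp (quartiles 908 and 1710). No member of another lineage reached the narrowest of the mesenchymal members. This gap depended on which TSSs were used and on the classes. With the starts of protein-coding transcripts alone, the narrowest mesenchymal width was 568 bp and 5 members of other lineages reached it. With 1 TSS per gene or with RefSeq starts it was 800 bp and 3 reached it. With the broadly expressed members counted among other lineages, the median there was 855 bp and 4 members reached 1658 bp.

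Peaks of at least 2000 bp were found at 5 of 11 mesenchymal members (45.5%), 4 of 5 broadly expressed members and 0 of 26 members of other lineages, whereas 9.46% of all protein-coding genes had one. The mesenchymal genes were Tbx15, Sox9, Tbx3, Pax9 and Tbx18. The broadly expressed genes were Sox12, Sox11, Sox4 and Sox13.

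The SOX trio drives cartilage formation. Sox9, its master regulator, had 1 peak of 2947 bp at chr11:112781265-112784211, from 959 bp upstream to 1987 bp downstream of the single TSS of the gene (chr11:112782224-112787760, plus strand). It was wider than the widest peaks of 96.7% of coding genes with a peak. The TSS of the non-coding transcript BC006965 also lay within 1 kb of it. Sox5 and Sox6, long SoxD genes that act together with Sox9, had narrower peaks. Sox5 (chr6:143828425-144781977, minus strand) had a peak of 1658 bp at its 5′-most start, chr6:144781092-144782749, and another of 568 bp at an internal start 572525 bp further into the gene. Sox6 (chr7:115470872-116038796, minus strand) had 3 peaks of 1705, 1815 and 1077 bp. The widest, chr7:116033203-116035017, covered 2 starts of Sox6. The other two lay beside starts of the antisense gene Sox6os and the coding gene 1110004F10Rik, and cannot be assigned to 1 of the neighbours.

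Pax9 and Pax1 are paralogues that specify the sclerotome, the precursor of the vertebrae. They differed in the list. Pax9 (chr12:56691767-56712822, plus strand) had 3 TSS peaks of 932, 727 and 2592 bp. The widest, chr12:56695626-56698217, began 13 bp before a start that lies 3872 bp into the gene, and both narrower peaks also lay near a start of the antisense gene Gm15524. Pax1 (chr2:147361925-147393295, plus strand) had no TSS peak, and its nearest peak was 28288 bp from a TSS. No putative enhancer lay within 100 kb of it.

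Among the T-box genes, Tbx2, Tbx3, Tbx4 and Tbx5 pattern limb, heart and lung, and lie in 2 linked pairs that arose from an ancestral tandem pair. Tbx2, a repressor of cell cycle inhibitors, had a peak of 1799 bp at chr11:85831951-85833749 over its only start (gene at chr11:85832551-85841948, plus strand). The start of the non-coding gene 2610027K06Rik lay within 1 kb of it. Tbx4, the hindlimb factor (chr11:85886422-85916097, plus strand), had 5 TSS peaks between 250 and 1838 bp. The widest, chr11:85889685-85891522, covered a start 3641 bp into the gene.

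Tbx3, which is needed for limb and mammary gland, had peaks of 1006 and 2651 bp in a gene at chr5:119670669-119684724, plus strand. The wider one, chr5:119671002-119673652, began 16 bp before a start and lay wholly in annotated exons. The antisense gene Tbx3os1 starts within 1 kb of both. Tbx5, the forelimb and heart factor at chr5:119832668-119885219, plus strand, had no TSS peak. Its nearest peak was 98866 bp from a TSS.

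Both pairs thus held at least 1 marked gene. The genes of the Tbx2 and Tbx4 pair were 44.5 kb apart, and the region from 20 kb before to 20 kb after them held 10 peaks and 1 putative enhancer. For Tbx3 and Tbx5, 148 kb apart, the same span held 4 peaks and 0 enhancers, and the peaks were all on the side of Tbx3, as the map of the 3 loci shows.

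Tbx18, which marks mesenchyme of the somite, ureter and epicardium, had a single peak of 2196 bp at chr9:87729150-87731345 over both of its starts (gene at chr9:87702800-87731260, minus strand). It reached 2110 bp downstream and 85 bp upstream. The start of D030062O11Rik lay within 1 kb.

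Tbx15, which patterns dermal and limb mesenchyme, had the widest TSS peak of the set, wider than those of 99.3% of marked coding genes. The gene lies at chr3:99240381-99354259 on the plus strand and had 4 TSS peaks. A peak of 1984 bp, chr3:99239880-99241863, covered its 5′-most start. Those of 541, 1233 and 3930 bp lay near a start 13379 bp into the gene. The peak of 3930 bp, chr3:99254711-99258640, was intronic and began 951 bp downstream of that start. This rank depended on the rule. With a TSS window of 500 bp, with 1 TSS per gene, or with only peaks that contain a TSS, the last chosen after seeing the data, Tbx15 was left with 1984 bp and Sox12 had the widest peak of the set.

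The Tbx15 peaks were part of a longer run. When peaks within 1 kb of each other were joined, those around the internal start formed a stretch of 16196 bp, chr3:99247690-99263885. It was made of 14 peaks between 200 and 3930 bp, which covered 11709 bp of it. Of the 18032 stretches formed in this way over all chromosomes, 2 were at least as long, Tbx15 included. No other coding gene had a TSS in the stretch, and 2 putative enhancers overlapped it.

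**Figure D2:**
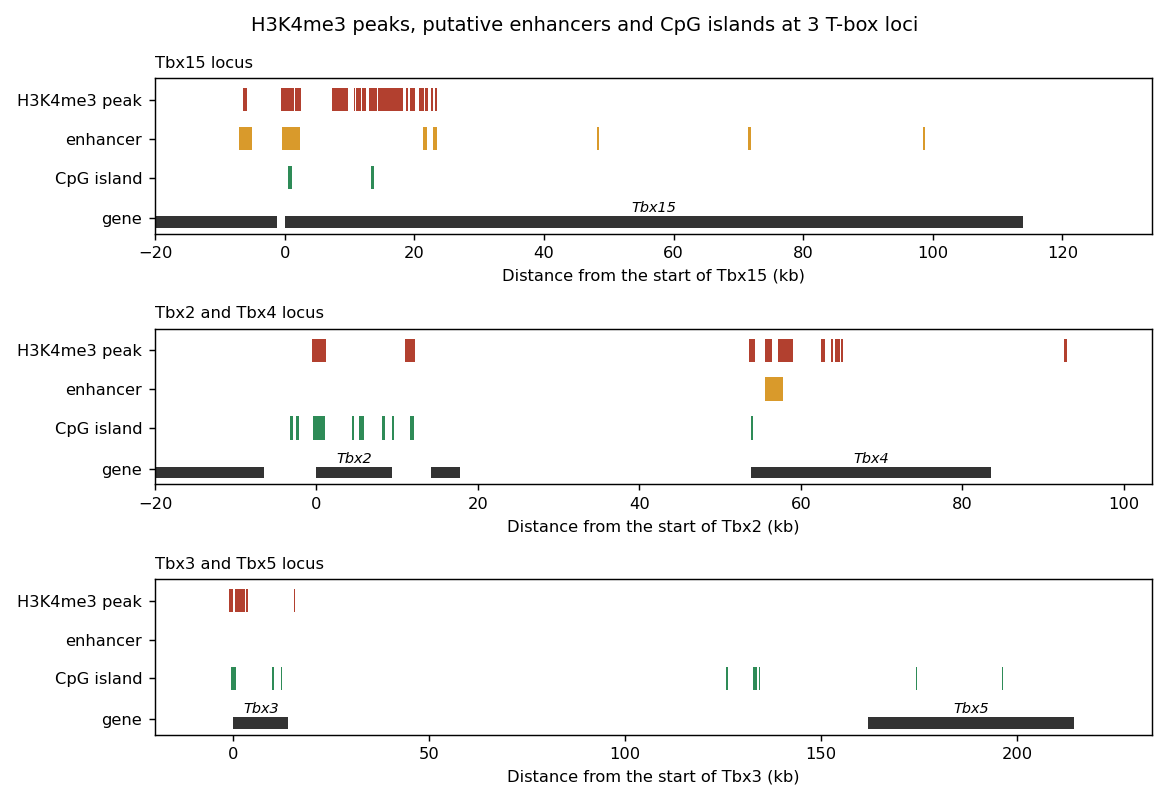
Positions of H3K4me3 peaks, putative enhancers, CpG islands and protein-coding genes at the Tbx15, Tbx2 and Tbx4, and Tbx3 and Tbx5 loci, in kb from the start of the first gene named. Peaks run through the 5′ part of Tbx15, lie at both Tbx2 and Tbx4, and lie at Tbx3 but not at Tbx5.

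Of the broadly expressed members, Sox4, Sox11 and Sox12 form the SoxC group, which acts in progenitor cells of many tissues. They are short genes with few or no introns. Sox12 (chr2:152393611-152398063, minus strand) had a peak of 3338 bp at chr2:152395724-152399061, which reached 2339 bp downstream of the TSS. Sox11 (chr12:27334264-27342574, minus strand) had a peak of 3324 bp at chr12:27340668-27343991, which reached 1906 bp downstream. Sox4 (chr13:28948919-28953713, minus strand) had a peak of 3299 bp at chr13:28950498-28953796, 97.5% of it exonic, and a second of 213 bp just upstream. The percentiles of the 3 widths among marked coding genes were 98.2, 98.2 and 98.1. Sox13, a SoxD gene of several tissues, had a peak of 2048 bp. Mga, a T-box protein that pairs with MAX, had one of 1324 bp over its promoter and one of 200 bp beside it.

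The 10 marked members of other lineages had narrow peaks. The widest of them, 1166 bp, belonged to Sox8, a glial and Sertoli cell gene, and also lay near the start of the antisense gene 2810468N07Rik. It was followed by Sox21 of neural progenitors with 981 bp, Eomes of early mesendoderm with 855 bp and Pax3 of muscle progenitors and neural crest with 748 bp. Sox7 of endothelium (chr14:63943673-63950732) had 635 bp and Sox30 of male germ cells (chr11:45980310-46017994) 554 bp. Pax6, the eye and brain factor, had 418 bp, Pax2 of kidney 311 bp, Sox18 of endothelium 268 bp and Tbx20 of heart 233 bp. The shortest peak in the whole list was 200 bp. At Pax6 and Sox18 the peak did not contain a TSS. All 10 widths were below the median of marked coding genes, and 0 of 9 mesenchymal widths were.

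**Figure D3:**
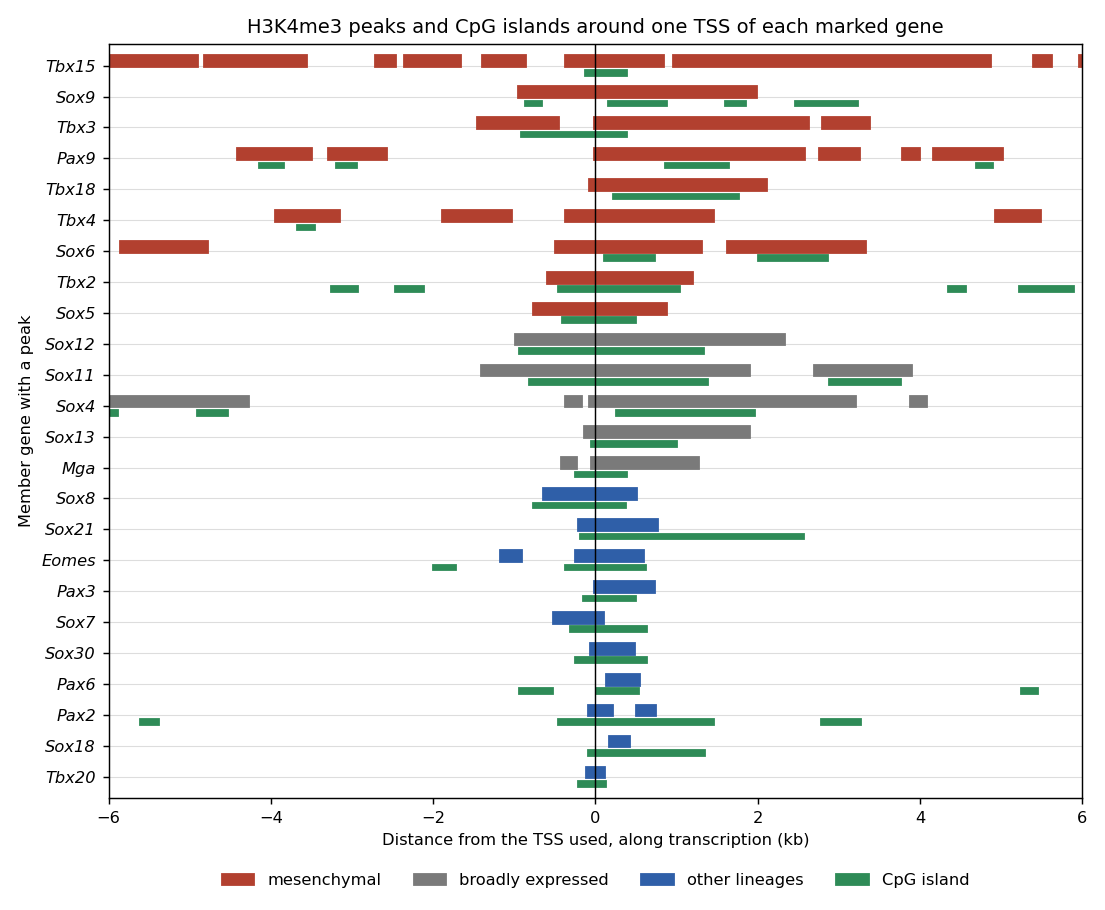
H3K4me3 peaks, coloured by class, and CpG islands, in green, within 6 kb of the TSS nearest to the widest peak of each marked member, in kb along the direction of transcription. In mesenchymal and broadly expressed members the peaks extend further into the gene than in members of other lineages, where they stay near the TSS.

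The peaks were not placed evenly around the TSS. The widest peak reached further downstream than upstream in 9 of 9 mesenchymal, 5 of 5 broadly expressed and 8 of 10 other members, the exceptions being Sox7 and Sox8. Distances were taken from the 5′-most member TSS inside the peak, which gives the longest downstream reach. The widest peaks of Tbx15, Pax6 and Sox18 contain no TSS and lie wholly downstream of the nearest one. The same count was not made over all protein-coding genes. The paper describes H3K4me3 as typically stronger 3′ of TSSs. Over widest peaks that contain a TSS, the median reach downstream was 1723 bp in mesenchymal, 1909 bp in broadly expressed and 500.5 bp in other members. The median reach upstream was 441, 138 and 163.5 bp in the same order. The downstream reach ranged from 885 to 2634 bp in mesenchymal members and from 106 to 765 bp in members of other lineages, and these ranges did not overlap. They overlapped with other TSS sets, chosen here after seeing the data. With 1 TSS per gene the lowest mesenchymal reach was 382 bp, and Pax9 and Tbx4 fell within the range of other lineages. With RefSeq starts it was 543 bp, and Tbx4 did. The map of peaks around the TSS shows this difference.

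CpG islands, stretches rich in CpGs that coincide with many promoters, were called from the reference sequence. An island lay within 1 kb of a TSS in 37 of 42 members (88.1%), against 57.9% of all protein-coding genes. The classes were alike in this respect, with an island at 10 of 11 mesenchymal, 5 of 5 broadly expressed and 22 of 26 other members (84.6%). All 24 marked members had one. Among members with an island, 64.9% were marked, whereas among all protein-coding genes with an island 90.0% were. The share was 9 of 10 for mesenchymal members and 10 of 22 (45.5%) for members of other lineages. Of protein-coding genes without an island, 16.6% had a peak, and of the 5 members without one, 0 did.

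Thus 13 members had an island and no peak. Their richest TSS had a median of 6.69 CpGs per 100 bp, between 2.60 and 11.7, counted over 500 bp to each side. For the 24 members with an island and a peak the median was 7.54, between 4.90 and 12.8. The lengths of all islands within 1 kb of a TSS were added for each member, so members with more starts can have more. This summed length had a median of 1498 bp in the unmarked members and 1279 bp in the marked members. Over the 24 marked members, the Spearman correlation with the width of the peak was 0.13 for CpG density and 0.26 for summed island length. Both are given as a description, since members share one list and some share neighbours.

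**Figure D4:**
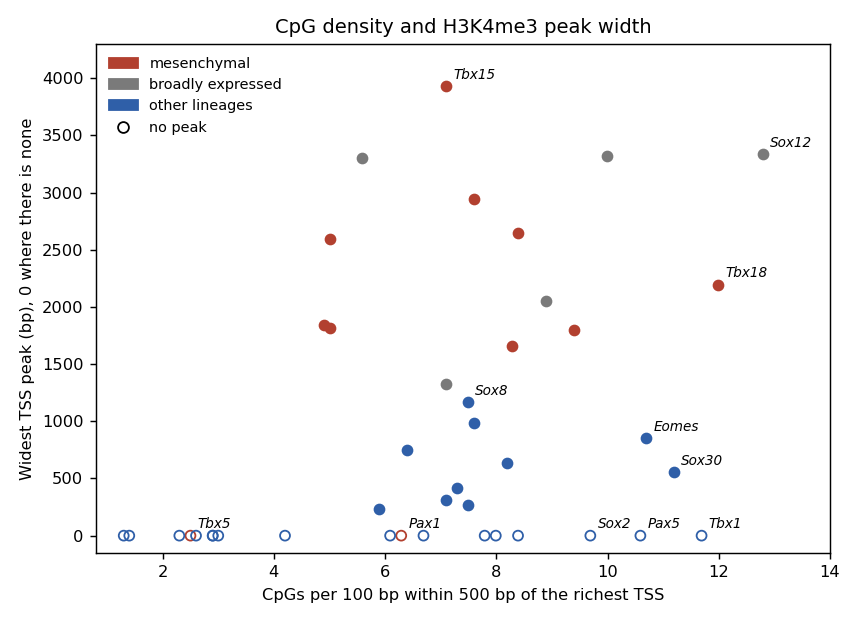
CpGs per 100 bp within 500 bp of the CpG-richest TSS of each member, against the width in bp of its widest TSS peak, with open circles at 0 for members without a peak. Members without a peak reach 11.7 CpGs per 100 bp at Tbx1, and the mesenchymal Pax1 and Tbx5 also lie at 0. Among marked members at like CpG density, those of other lineages lie below the mesenchymal and broadly expressed ones.

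Of the 13, Pax1 was mesenchymal, with 6.29 CpGs per 100 bp. Among the neural genes, Sox1 (chr8:12395295-12400126), with 2475 bp of island sequence, had its nearest peak at 12057 bp from the TSS. Sox2 (chr3:34650405-34652461), the pluripotency and neural progenitor gene, had 2537 bp of island sequence and 9.69 CpGs per 100 bp. Its nearest peak was 163458 bp away, the largest distance among the members. Sox14 of interneurons (chr9:99874106-99876170) had its nearest peak at 11541 bp, and Tbr1 of cortical neurons (chr2:61802930-61814114) at 8847 bp. Sox10 of neural crest and glia (chr15:79154908-79165240) had 703 bp of island sequence and its nearest peak at 22102 bp.

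In the other tissues, Sox17 of endoderm and endothelium (chr1:4490931-4497354) had 2633 bp of island sequence and its nearest peak at 74051 bp. Sox15 of stem cells and muscle (chr11:69655314-69656727) had 287 bp of island sequence, the least of the 13, and its nearest peak at 6555 bp. Pax5 of B cells (chr4:44524757-44710487) had 10.6 CpGs per 100 bp and its nearest peak at 17764 bp. Pax7 of muscle progenitors (chr4:139737062-139833528) had 2040 bp of island sequence and its nearest peak at 26103 bp. Pax8 of thyroid and kidney (chr2:24420560-24475599) had 320 bp of island sequence and its nearest peak at 45740 bp. For Tbx1 of pharyngeal mesoderm (chr16:18580979-18590671) the island sequence came to 3644 bp, the most of the 13. Tbx21 of T helper cells (chr11:97098071-97115331) had 766 bp of island sequence and its nearest peak at 11566 bp.

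The 5 members without an island were Tbx5, Pax4 of endocrine pancreas, Tbx6 of presomitic mesoderm, Tbx10 of hindbrain and Tbx19 of pituitary. Their richest TSS had between 1.30 and 2.90 CpGs per 100 bp, and their nearest peaks were between 2408 bp, at Pax4, and 98866 bp away, at Tbx5.

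Short promoter motifs were counted in the RefSeq promoters, on both strands. These were available for 31 of 42 members, in 40 promoters of 300 bases. The GC box GGGCGG was present in 55% of member promoters and 35.7% of all 32851 promoters. It was found in 9 of 17 marked and in 12 of 14 unmarked members. CCAAT was present in 45% and 37.4%, and TATAAA in 10% and 13.6%. None of these motifs contains another. The member promoters held a median of 15.5 CpGs, with 15 for marked and 16 for unmarked members, against 7 over all promoters.

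To describe the regulatory regions around the members, putative enhancers with any base in the gene or within 100 kb were counted. At least 1 was found for 35 of 42 members (83.3%), against 75.5% of all protein-coding genes. The share was 9 of 11 for mesenchymal members (81.8%) and 21 of 26 for members of other lineages (80.8%). The median number was 3 in mesenchymal members, 5 in broadly expressed members and 2 in members of other lineages, and 3 over all coding genes. The classes had equal medians when only the surroundings of TSSs were searched, with 1 each, and when Sox5 and Sox6 were counted with other lineages, with 2 each. Mesenchymal genes were longer, with a median length of 29676 bp against 8807 bp in other lineages, so their windows were longer too. Per 100 kb of window the medians were 1.13, 2.40 and 0.693, and 1.00 over all coding genes.

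The enhancers were also placed relative to the genes. Inside the genes there were 34 enhancers, at 6 of 11 mesenchymal members, and 4 enhancers, at 2 of 26 members of other lineages. Over all protein-coding genes, 25.0% had an enhancer inside. The long genes Sox5 and Sox6 held 24 of the 34, and the remaining 10 lay in 4 of the other 9 mesenchymal genes. An enhancer covered a TSS of 5 of 11 mesenchymal members, which were Sox6, Pax9, Tbx4, Tbx15 and Tbx18, and of 0 of 26 members of other lineages. Over all protein-coding genes the share was 2.85%. At each of these 5 genes an enhancer over a TSS also overlapped an H3K4me3 peak. Another over a start of Sox6, chr7:115597582-115597898, overlapped no peak. The list was built without the surroundings of known promoters. The set of TSSs the study used for this was not given, and why these enhancers cover TSSs used here was not tested.

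**Figure D5:**
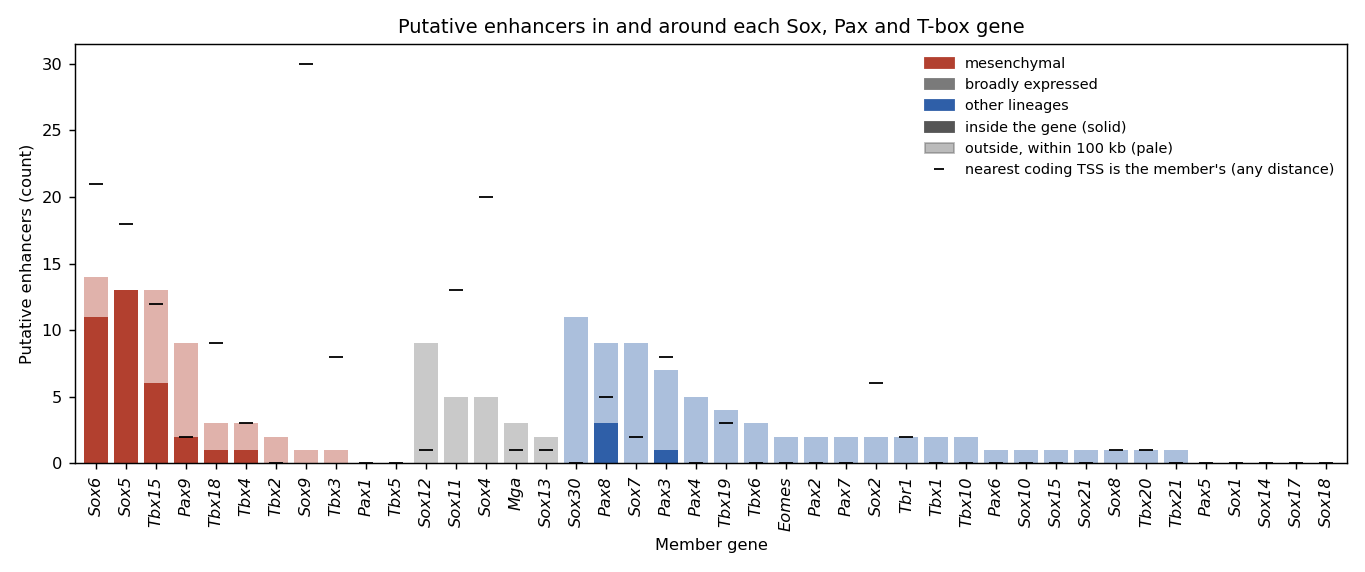
Number of putative enhancers in each member gene (solid bars) and outside it within 100 kb (pale bars), by class, with dashes for enhancers at any distance whose nearest protein-coding TSS belongs to the member. Sox6, Sox5 and Tbx15 have the most enhancers inside the gene, and Sox9 has 1 within 100 kb but is the nearest coding gene of 30.

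The most enhancers were found at Sox6, with 14, of which 11 were inside the gene. Tbx15 and Sox5 had 13 each. For Tbx15, 6 lay in the gene, and the longest, chr3:99240024-99242814, spanned 2791 bp over the 5′-most start. All 13 of Sox5 were intragenic and none overlapped a peak. Sox30 had 11, none in the gene, and each was nearer to another coding gene, such as Adam19, than to Sox30. Next came Pax9, Sox12, Sox7 and Pax8 with 9 each. Of those of Pax9, 2 lay in the gene and overlapped peaks, and the other 7 were nearest to Slc25a21. Pax8 had 3 in the gene although it had no TSS peak. Among the other mesenchymal members, Tbx4 and Tbx18 had 3, Tbx2 had 2, Sox9 and Tbx3 had 1, and Pax1 and Tbx5 had 0.

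A window holds enhancers of neighbouring genes. The windows held 150 different enhancers in 152 pairs with members, and for 82 pairs (53.9%) the nearest protein-coding TSS was that of the member. Of the windows, 13 held no other coding gene and 4 held at least 10. When enhancers at any distance were given to the nearest coding TSS, mesenchymal members had a median of 8 and 103 in all, and 8 of 11 had at least 1. Members of other lineages had a median of 0 and 28 in all, and 8 of 26 had at least 1. The median over all coding genes was 0, and the share of them with at least 1 was not counted. This count grows with the empty distance around a gene.

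Sox9, Sox4 and Sox11, whose windows held no other coding gene, were nearest to many distant enhancers. For Sox9, 29 of its 30 enhancers lay beyond 100 kb of the TSS, the farthest at 821 kb. Sox4 had 20, of which 15 lay beyond 100 kb and the farthest at 346 kb. Sox11 had 13, of which 8 lay beyond 100 kb. Sox6 had 21 and Sox5 18. Tbx15 had 12, of which 4 lay beyond 100 kb. Of the members of other lineages, Pax3 had 8 and Sox2 6. Those 6 were given to Sox2 by distance alone, the nearest 92969 bp from its TSS, and its promoter had no peak.

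Known targets and partners of the members were examined as lists, to be read beside the 59.1% of all protein-coding genes with a TSS peak. Of 9 cartilage genes under SOX9, SOX5 and SOX6, 4 had a TSS peak, namely Col11a1 with 1381 bp, Col2a1 with 1153 bp, Hapln1 with 758 bp and Comp with 283 bp. Acan, which encodes aggrecan, had none. The 4 sclerotome and limb partners all had one. These were Bmp4 and Fgf10, which encode growth factors, with 3312 and 2183 bp, and the homeobox genes Msx1 and Nkx3-2 with 1668 and 543 bp.

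Targets of members of other lineages gave counts from none to nearly all. A peak was found at 4 of 5 Sox10 glial targets, with a median width of 682.5 bp, and at 3 of 5 endothelial targets of Sox7, Sox17 and Sox18. It was found at 2 of 4 muscle targets of Pax3 and Pax7, but not at Myf5 or Myod1, which commit cells to muscle. Of 4 thyroid and kidney targets of Pax8 and Pax2, the growth factor gene Gdnf had a peak of 2745 bp and Tg one of 231 bp. Among the B cell targets of Pax5, 0 of 4 had a peak, as did 0 of 3 T helper targets of Tbx21 and 0 of 3 endocrine targets.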

How the data were processed

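H3K4me3 ChIP-seq was done on 12 libraries, with 2 input libraries. The authors trimmed reads (Trim Galore), aligned them to mm10 (GRCm38.p6) with BWA, filtered them (samtools), merged the replicates (Picard) and called narrow peaks by MACS. They deposited 1 peak list for all samples together, and the deposited enhancer list holds regions outside promoters where untreated cells showed accessible chromatin with H3K27ac and H3K4me1. Both give positions only, with 0 columns of values per sample and no scores, so the count test planned for changes over time could not be run. The methods name a minimum of raw reads aimed at per ChIP sample and scaling to the lowest coverage within an experiment. The depth reached by each library is not part of the lists. A union merges or splits regions over time points, which can alter widths.

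Every transcript start of GENCODE release M21 served as a TSS, at 132629 places on the autosomes and on X and Y. The study named release M25 for its reference. Of the peaks, 25357 lay on these chromosomes. The starts of the peak list were read as counting from 0 and those of the enhancer list as counting from 1, and 0 regions reached past the end of a chromosome. CpG islands were called from repeat-masked sequence with a score of 17 per CpG and -1 per remaining base. Segments were kept above 200 bp, 50% GC and an observed to expected CpG ratio of 0.6, which gave 16191 islands and is not the published track. Windows were 1 kb for peaks and 100 kb for enhancers. The software was Matplotlib 3.10.9, Numba 0.67.0, pandas 2.3.3, SciPy 1.17.1 and NumPy 2.4.6 under Python 3.11.15. On simulated data, 0 of 2000 overlap queries differed from brute force, and 40 of 40 planted islands were recovered with 0 called elsewhere.

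The members, their classes, the gene lists and the alternatives were chosen with earlier results of these data known, and the classes rest on textbook expression, not on a measurement here. Gene coordinates are given for the 8 members with the widest TSS peak, all mesenchymal members, the 5 members with the most enhancers with ties, and members with an island and no peak. Any member of another lineage with a peak of at least 2000 bp would have been included. Alternatives were other TSS windows and TSS sets, longer peaks, merged peaks, other enhancer windows and rules, stricter islands and other class assignments.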

Additional observations from a re-analysis of the deposited data

How the results depend on the processing

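No paired analysis was possible because positions carry no values per replicate, and for the same reason the replicate block, DESeq2 size factors, filters and omitted replicates intended for changes over time were not run. Of 92 class values under the alternatives, 80 stayed within the 95% interval of the main value. Another 6 fell outside it, and 6 came from alternatives that turned the order of the classes. Each alternative gave 1 value per class, so these last 6 come in pairs. Moving the broadly expressed members to either class cannot change the other class, and such unchanged values were counted too. The 95% intervals, Wilson for shares and from the ordered values for medians, are wide for so few genes. A mesenchymal median of 1 or 8 enhancers against 3 stayed within, and equal class values did not count as a turned order. Merging peaks within 1 kb raised the mesenchymal median of the widest peak from 2196 to 3357 bp. In members of other lineages the median number of enhancers was 2 within 100 kb, 0.500 within 50 kb, 5 within 250 kb and 0 when only enhancers nearest to the TSS of the member were counted. In mesenchymal members it was 3, 1, 8 and 8. Both medians were 1 around TSSs only and 2 with Sox5 and Sox6 among other lineages. In other lineages the share with at least 1 went from 80.8% to 50% within 50 kb and 30.8% by the nearest TSS. The share with at least 1 enhancer, 81.8% in mesenchymal members against 80.8% in other lineages, turned over within 250 kb (90.9% against 92.3%), with broadly expressed members counted among other lineages (81.8% against 83.9%) and with Sox5 and Sox6 counted there (77.8% against 82.1%).

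The share of marked members stayed higher in the mesenchymal class, and its median width larger, under all 12 alternatives tried for each. The absence of overlap in width was less stable. Members of other lineages reached the narrowest mesenchymal member with protein-coding transcript starts (5), 1 TSS per gene (3), RefSeq starts (3) and merged peaks (1). They also did so with broadly expressed members (4) or Sox5 and Sox6 (1) counted among other lineages. With mesodermal and muscle members counted as mesenchymal, 7 did. The lowest downstream reach of a mesenchymal member, 885 bp, fell below the highest of other lineages, 765 bp, with 1 TSS per gene (382) and RefSeq starts (543). Presence changed for few members. A window of 2 kb added Tbx1, a minimum of 500 bp removed Sox18, Pax2, Pax6 and Tbx20, 1 TSS per gene removed Pax6, and peaks that contain a TSS, chosen after seeing the data, removed Sox18 and Pax6.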
